A study of Mus musculus with 22 samples.

Results

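A set of 9 genes of the angiopoietin and vascular endothelial growth factor (VEGF) systems was followed in mouse spinal cord after temporary loss of blood flow, out of 18193 genes that the arrays measured with a probe set of their own. Of the 9, 3 are ligands (Angpt1, Angpt2 and Vegfa), 4 are endothelial receptor tyrosine kinases (Tek and Tie1 for the angiopoietins, Kdr and Flt1 for VEGF), and the others are Nos3, the endothelial nitric oxide synthase, and Plvap, a protein of the diaphragms that cover endothelial fenestrae. The genes were taken by name. Each was read from the probe set carrying its symbol alone with the highest mean over all arrays, and the other probe sets of these genes, out of 15 in all, served as a check.

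Angpt1, made largely by cells around the vessel, activates the endothelial receptor Tek and holds vessels quiescent and tight. Angpt2 is stored and released by endothelial cells, is a weaker and context-dependent ligand of Tek, and is known for loosening vessels, while Tie1 has no firmly established ligand of its own and modifies signalling by Tek. Vegfa is induced by low oxygen and drives permeability and sprouting through Kdr, whereas Flt1 binds Vegfa tightly and signals weakly, and its soluble form acts as a decoy.

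All mice were wild-type C57Bl/6, 10 to 12 weeks of age, from Jackson Laboratories. The aorta was clamped for 7.5 min, or the mice had a sham operation, whose time before tissue collection the labels do not give, and cord from below T6 (caudal) and from above T6 (rostral) was hybridised separately to Affymetrix Mouse430_2 arrays. There were 3 caudal and 3 rostral arrays at 24 h after clamping, 4 caudal and 4 rostral arrays at 48 h, and 3 caudal and 4 rostral sham arrays. Array 276 of rostral cord was labelled with both times and is not part of any group. Whether the arrays within a group came from separate animals is not given, so the p-values reflect the spread among these samples, which may be technical.

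Levels are log2 signals from the authors' RMA processing, differences are log2 differences with their standard error (SE), and a gene was called when its limma p, adjusted by Benjamini-Hochberg over the 18193 genes, was under 0.05. Array medians lay between 6.79 and 6.88. Several arrays stood apart. Caudal 48 h array 271 had a standard deviation of 2.05 over all values, against at least 2.21 on the others, and caudal arrays 274 (48 h) and 280 (sham) were left out together with it in an alternative, because earlier work on these data had set these 3 apart. The 2 arrays numbered 283 (24 h) went against their region labels: Hoxc10, a posterior identity gene, had 5.67 on caudal array 283, against 9.19 to 10.48 on the other caudal arrays, and 10.14 on rostral array 283, against 5.32 to 6.22 on the other rostral arrays. Transcripts of heart muscle were present in the 48 h samples. The mean level of 12 cardiac markers was 9.27 to 10.66 on rostral 48 h arrays, against 5.94 to 6.01 on rostral sham arrays, and 6.56 to 8.01 on caudal 48 h arrays, against 5.88 to 5.99 on caudal sham arrays. Neuron markers, the defining genes of the labelled tissue, averaged at least 11.6 on every array.

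In caudal cord 48 h after clamping, the ligand Angpt2 was 2.39-fold higher than in sham cord, and the receptors Tek, Tie1 and Kdr were lower, by 2.89-fold, 1.82-fold and 1.42-fold. These were 4 of the 9 genes, 1 higher and 3 lower, in a comparison in which 12.5% of all genes were called. The median difference of the 9 genes was −0.24, against 0 over all genes. Vegfa, Plvap, Angpt1, Flt1 and Nos3 did not pass the adjusted p. Where groups are said below not to overlap, the share of all genes that separate in the same way was not counted. The samples are whole cord, in which fewer endothelial cells and less RNA per endothelial cell cannot be told apart.

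Tek had log2 levels of 5.51, 6.70, 6.06 and 7.38 on caudal 48 h arrays 271 to 274, against 7.96, 7.95 and 7.93 on caudal sham arrays 278 to 280. Every 48 h array was below every sham array, and the spread was far wider after clamping, with SDs of 0.81 at 48 h and 0.01 in sham cord. The fall was 1.53 ± 0.30 (95% interval −2.17 to −0.90, adjusted p = 0.003477, limma). Tie1, the partner receptor of Tek, had 5.17, 6.49, 6.14 and 6.44 at 48 h, against 6.89, 6.87 and 7.02 in sham cord. Its groups did not overlap either, and array 271 held the lowest value of both receptors. Both values lay below the lower quartile of that array (5.524). The deposited values carry no detection call, so the size of these falls on array 271 is uncertain. Tie1 fell by 0.87 ± 0.25 (−1.38 to −0.35, adjusted p = 0.02923), and by 0.57 without array 271 (adjusted p = 0.03689).

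Angpt2 had 8.11, 8.81, 8.22 and 7.25 on caudal 48 h arrays 271 to 274, against 6.81, 6.76 and 6.96 on sham arrays. All 48 h arrays lay above the sham arrays, and the lowest of them was array 274, on which Tek was highest. The rise was 1.26 ± 0.25 (0.72 to 1.79, adjusted p = 0.004072). Angpt1 had 7.61, 7.35, 8.15 and 8.42 at 48 h, against 7.69, 7.75 and 7.82 in sham cord. The 48 h arrays lay on both sides of the sham arrays, and the difference of 0.13 ± 0.19 (−0.28 to 0.53, adjusted p = 0.6371) did not pass. Angpt1 and Angpt2 were not tested against each other.

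Kdr, the main signalling receptor for Vegfa, had 8.16, 8.55, 7.97 and 8.39 on caudal 48 h arrays, against 8.79, 8.70 and 8.84 on sham arrays, without overlap. It fell by 0.51 ± 0.13 (−0.78 to −0.23, adjusted p = 0.01819). Vegfa had 8.20, 8.06, 7.91 and 8.54 at 48 h, against 8.62, 8.56 and 8.58 in sham cord. These groups did not overlap, array 274 lying just under the sham arrays, but the difference of −0.41 ± 0.15 (−0.74 to −0.09) had an adjusted p of 0.07864. Without caudal 48 h array 274 it was −0.53 (adjusted p = 0.01216).

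The remaining 3 genes overlapped between caudal 48 h and sham cord. Plvap had 7.67 to 8.30 at 48 h, against 8.18 to 8.36 in sham cord, a difference of −0.24 ± 0.12 (adjusted p = 0.1717). Nos3, whose product makes the vasodilator nitric oxide, had 7.54, 8.60, 8.51 and 7.85 at 48 h, against 8.14, 7.93 and 8.08 in sham cord. Arrays 272 and 273 were above all sham arrays and arrays 271 and 274 below them, which left a difference of 0.08 ± 0.19 (−0.32 to 0.47, adjusted p = 0.7795). Flt1 had 8.68, 9.29, 9.53 and 8.86 at 48 h, against 9.12, 8.85 and 9.23 in sham cord, and differed by 0.03 ± 0.18 (−0.34 to 0.40, adjusted p = 0.9126).

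**Figure D1:**
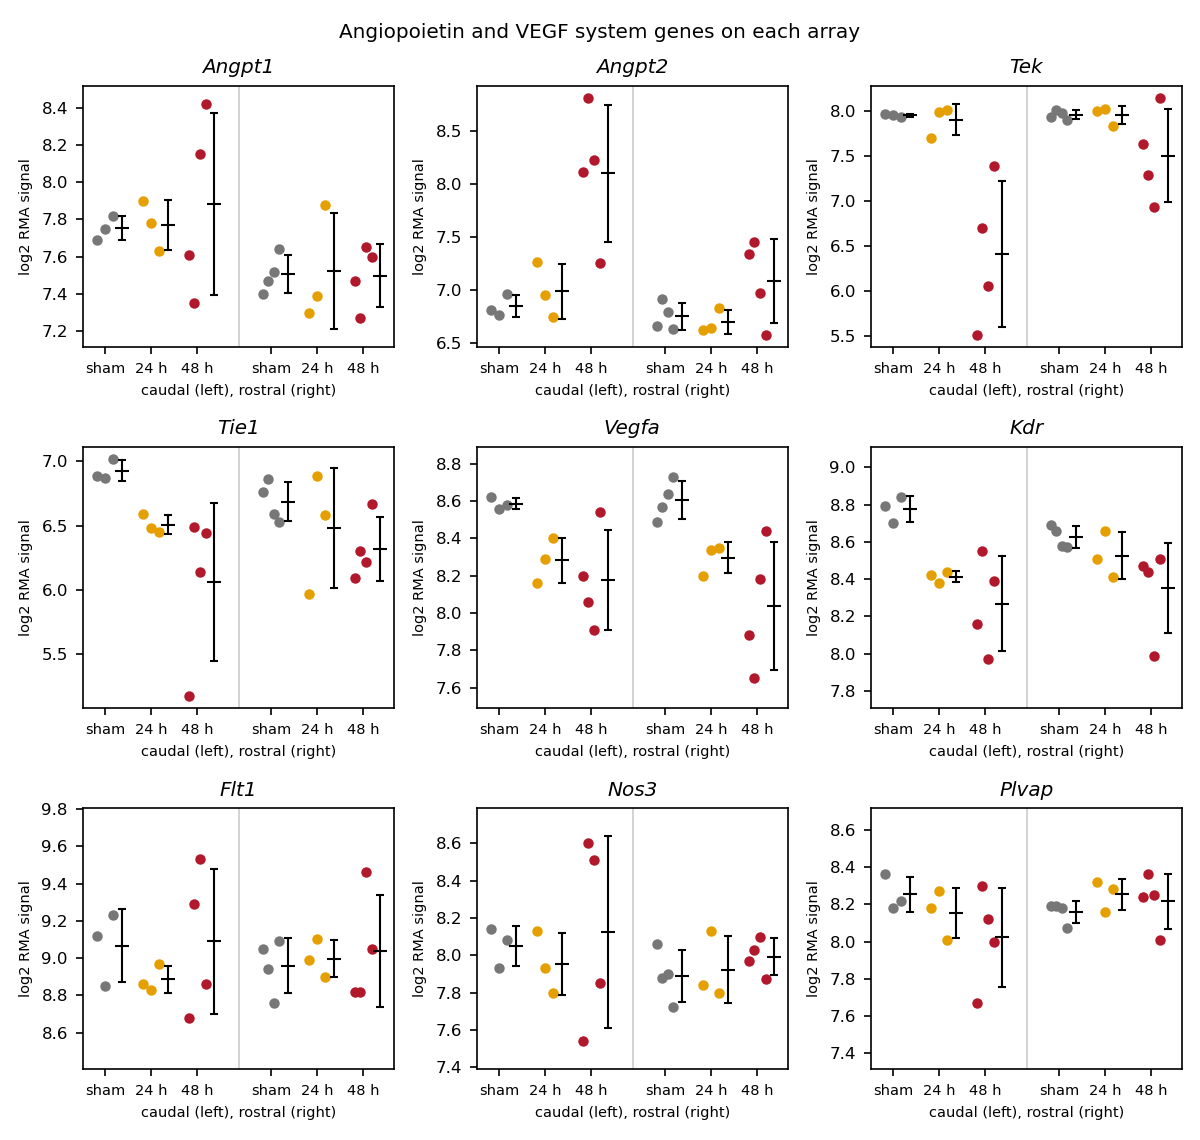
Log2 RMA signal (vertical axes) of the 9 genes on each of the 21 grouped arrays, by region and by sham, 24 h and 48 h; points are arrays and bars show mean ± SD. Caudal 48 h arrays (red, left of each panel) lie below all caudal sham arrays for Tek, Tie1, Vegfa and Kdr and above them for Angpt2, and they spread the most for Tek (SD 0.81). The share of all genes that separate in this way was not counted.

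The calls in this comparison rest on the spread pooled over the 6 groups. In a fit of the caudal 48 h and sham arrays alone none of the 9 genes passed, with adjusted p-values of 0.185 for Tek, 0.1884 for Angpt2, 0.382 for Tie1 and 0.3551 for Kdr. Tie1 also missed the threshold without caudal sham array 278, 279 or 280 (adjusted p 0.08889, 0.07347 and 0.09843), and Kdr without 278 or 280 (0.07326 and 0.07418), while Tek and Angpt2 passed with each of the 21 arrays left out in turn. Over all alternatives the adjusted p ran from 8.305e-07 to 0.185 for Tek, from 3.876e-06 to 0.1884 for Angpt2, from 0.001287 to 0.382 for Tie1 and from 8.393e-05 to 0.3551 for Kdr.

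Some markers of endothelial cells also fell in caudal cord at 48 h, where 7.02% of all genes were called lower. Of 13 measured endothelial markers, none was higher and 4 were lower: Slco1c1 (−1.47 ± 0.31), Abcb1a (−1.05 ± 0.23), Slco1a4 (−1.01 ± 0.20) and Cldn5 (−0.61 ± 0.16). These encode transporters and a tight junction protein of the blood-brain barrier. The other 9 did not pass, among them Pecam1 (−0.24 ± 0.49), Slc2a1 (0.25 ± 0.15) and Cdh5 (0.62 ± 0.23, adjusted p = 0.07919), and the median over the list was −0.24. Without caudal arrays 271, 274 and 280, an alternative chosen after seeing the data, 4 of the 13 were higher and 4 lower, with a median of −0.01. The share of all genes called in that alternative is not given here. The mean level of the 13 markers was 8.24 to 8.98 on caudal 48 h arrays, against 8.89 to 9.04 on caudal sham arrays. Monocyte markers (4 genes) averaged 9.78 to 11.36 at 48 h, against 7.88 to 8.38 in sham cord, and neuron markers 11.64 to 12.62, against 12.65 to 12.77. Array 271 held the lowest endothelial and neuron means and the highest monocyte mean. On arrays 272 to 274 the means were 8.61 to 8.98 (endothelial), 9.78 to 10.46 (monocyte) and 12.51 to 12.62 (neuron). The part of these cell types in the receptor and ligand differences was not tested.

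The promoters of Tek, Tie1 and Kdr are shown because these receptor genes fell together, and that of Vegfa because it is the oxygen-responsive ligand of the group. Of the 9 genes, 5 matched the RefSeq promoter table by symbol (Flt1, Kdr, Tek, Tie1 and Vegfa), and that of Flt1, which was not called with the probe set used, is not shown. Each sequence gives the 250 bases before the annotated start on the gene's own strand, 5′ to 3′, in GRCm38.p6: Tek chr4:94739039-94739288 (+ strand), Tie1 chr4:118489850-118490099 (− strand), Kdr chr5:75978456-75978705 (− strand) and Vegfa chr17:46032378-46032627 (− strand, the most upstream of its starts in the table). Capitals mark the core of ETS factor sites, GGAA on either strand, and the core of hypoxia response elements, ACGTG or GCGTG on either strand.
Tek: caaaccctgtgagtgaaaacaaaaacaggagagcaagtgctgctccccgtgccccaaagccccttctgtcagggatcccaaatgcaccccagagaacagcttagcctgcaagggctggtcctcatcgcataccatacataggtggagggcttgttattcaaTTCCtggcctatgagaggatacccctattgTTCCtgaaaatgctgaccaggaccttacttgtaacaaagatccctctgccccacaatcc
Tie1: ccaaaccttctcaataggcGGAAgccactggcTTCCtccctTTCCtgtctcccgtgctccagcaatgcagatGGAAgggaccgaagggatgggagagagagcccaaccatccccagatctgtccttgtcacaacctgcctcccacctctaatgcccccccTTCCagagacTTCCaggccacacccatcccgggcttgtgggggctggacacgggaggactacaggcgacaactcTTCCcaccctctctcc
Kdr: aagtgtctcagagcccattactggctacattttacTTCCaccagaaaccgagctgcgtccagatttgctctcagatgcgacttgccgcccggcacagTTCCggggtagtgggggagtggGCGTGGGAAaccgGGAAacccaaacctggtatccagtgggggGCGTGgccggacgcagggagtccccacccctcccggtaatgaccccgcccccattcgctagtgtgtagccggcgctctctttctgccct
Vegfa: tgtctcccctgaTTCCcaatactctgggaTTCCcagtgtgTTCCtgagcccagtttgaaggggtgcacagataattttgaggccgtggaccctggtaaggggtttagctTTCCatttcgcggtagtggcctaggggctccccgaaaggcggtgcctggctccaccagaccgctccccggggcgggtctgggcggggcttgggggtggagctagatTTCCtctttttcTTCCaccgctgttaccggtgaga
The ETS core occurred 2 times in Tek, 7 times in Tie1, 4 times in Kdr and 6 times in Vegfa, in windows where the median over 32851 promoters of the same length was 3 and 93.4% held at least 1. The hypoxia core occurred 2 times in Kdr, once directly beside an ETS core, and not in the windows of Tek, Tie1 and Vegfa, while 38.6% of all promoters held one. These matches describe the letters of the windows and say nothing of factor binding.

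Probe sets of 1 gene did not always move together. For Flt1, the probe set with the second highest mean, 1419300_at, had 7.32, 8.72, 8.67 and 8.34 on caudal 48 h arrays, against 9.04, 8.95 and 9.25 on sham arrays. Its groups did not overlap, and in a fit over all probe sets it fell by 0.82 ± 0.23 (adjusted p = 0.03504), while the probe set used (1451756_at) differed by 0.03 ± 0.18, 1440926_at by 0.01 ± 0.21 and 1454037_a_at by 0.45 ± 0.27. The call of 1419300_at was lost without caudal sham array 278, 279 or 280 (adjusted p 0.1036, 0.07196 and 0.1317), and without caudal 48 h array 271 the difference was −0.50 (adjusted p = 0.02284). Flt1 transcripts can end early or late, and which of them each probe set reads is not given in the sources used here.

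The second probe set of Angpt2, 1459636_at, had 4.87 to 5.19 at 48 h, against 4.65 to 4.77 in caudal sham cord, a difference of 0.29 ± 0.14 (adjusted p = 0.1588). All these values lay below the lower quartile of their own arrays, so this probe set is no check on the one used. The second probe set of Vegfa, 1451959_a_at, differed by −0.26 ± 0.17 (adjusted p = 0.3035), the same sign as the one used. For Angpt1, both probe sets differed by 0.13.

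**Figure D2:**
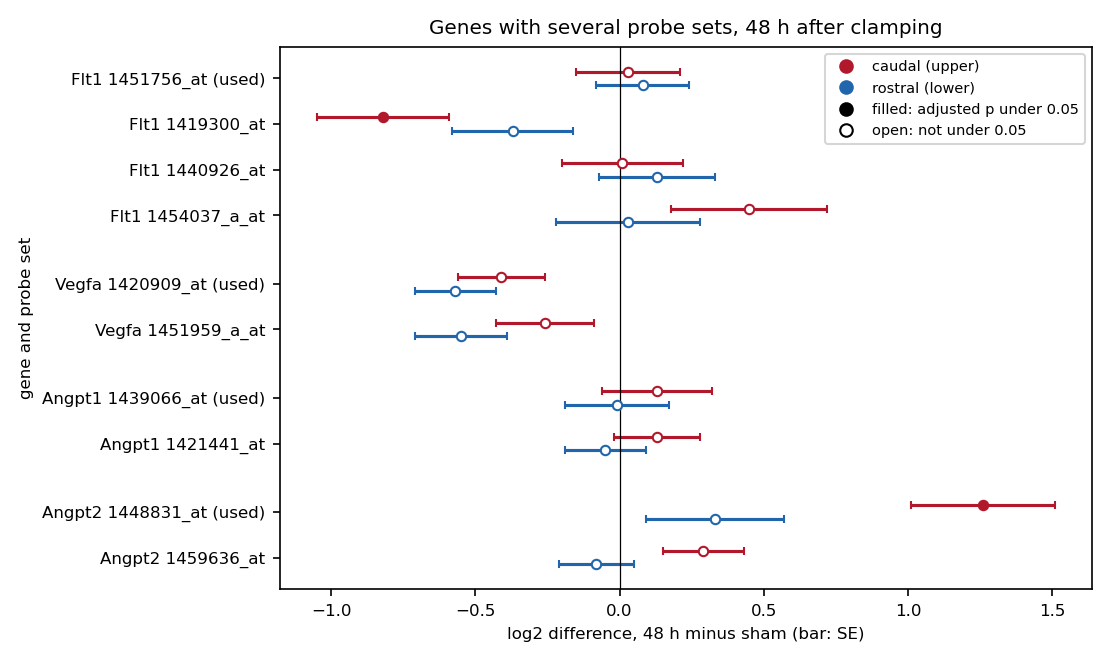
Log2 difference between 48 h and sham (horizontal axis, bars show SE) for every probe set of the 4 genes that have several, in caudal (red, upper) and rostral (blue, lower) cord; filled points had an adjusted p under 0.05. The filled points are Angpt2 1448831_at (1.26) and Flt1 1419300_at (−0.82), both in caudal cord.

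Genes that act with these ligands and receptors were described from 5 lists. In caudal cord at 48 h, 5.52% of all genes were called higher than in sham cord and 7.02% lower. No list was tested against these shares. Of 5 angiopoietin and Tie partners, 1 was lower in caudal cord at 48 h: Ptprb, the endothelial phosphatase that dephosphorylates Tek (7.74 ± 0.55 at 48 h, against 8.63 ± 0.16 in sham cord, −0.89 ± 0.22, adjusted p = 0.01395). It missed the threshold without caudal sham array 278 or 279 (0.07429 and 0.05341). The list's median was 0.28, opposite in sign to its called member. Of 9 other VEGF ligands, receptors and effectors, 2 were lower, Vegfc, a ligand of lymphatic growth (−0.50 ± 0.13, adjusted p = 0.01691), and Plcg1, the phospholipase that Kdr activates (−0.46 ± 0.14, adjusted p = 0.03622). The median of that list was −0.27. Vegfc missed the threshold without caudal sham array 278, 279 or 280 (0.05602 to 0.06653), and Plcg1 without those or caudal 48 h array 272 (0.06442 to 0.1303). Plcg1 differed by −0.30 without caudal 48 h array 271.

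Of 9 endothelial sprouting genes, 2 were higher and none lower, where 5.52% of all genes were called higher. The list's median was −0.10. Rcan1, a calcineurin inhibitor induced by VEGF signalling in endothelial cells, had 10.89 ± 0.49 at 48 h (SD, n = 4), against 9.80 ± 0.05 in sham cord (SD, n = 3). It rose by 1.09 ± 0.18 (adjusted p = 0.0007511). Esm1, a secreted product of sprouting tip cells, had 6.48 ± 1.90, against 4.20 ± 0.18, and rose by 2.28 ± 0.60 (adjusted p = 0.02001). The sham mean of Esm1 was under the lowest of the arrays' lower quartiles (5.17), where the deposited values carry no detection call, so the size of its rise is uncertain and may be understated. The Esm1 call was lost without caudal sham array 278, 279 or 280 (0.05541 to 0.08375).

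Of 13 nitric oxide genes, 2 were higher and 2 lower in caudal cord at 48 h, where 12.5% of all genes were called. Nos3 itself did not pass. Gch1, which makes the cofactor of nitric oxide synthases, rose by 2.68 ± 0.54 (adjusted p = 0.003919), and Klf4, a transcription factor that induces Nos3 in endothelial cells, by 0.87 ± 0.17 (adjusted p = 0.002939). Gucy1a1, a subunit of the nitric oxide receptor, fell by 0.95 ± 0.23 (adjusted p = 0.01389). Its call was lost without caudal sham array 278 or 279 (0.08048 and 0.06233) and with the mean of its probe sets (0.1813). Cav1, which binds and holds back the Nos3 enzyme, fell by 0.56 ± 0.18 (adjusted p = 0.04518). Cav1 stood at the threshold, missing it with 15 of the 21 arrays left out in turn (0.05104 to 0.1209), and differed by −0.33 without caudal 48 h array 271.

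Of 7 regulators of the hypoxia response upstream of Vegfa, 1 was higher and 2 were lower, where 12.5% of all genes were called. The list's median was −0.53. Hif1a, the oxygen-sensitive transcription factor, rose by 0.48 ± 0.11 (adjusted p = 0.007663), while Vegfa did not pass in either direction. Ppargc1a, a coactivator that induces Vegfa independently of Hif1a in muscle, fell by 1.13 ± 0.19 (adjusted p = 0.0008424). Egln1, the prolyl hydroxylase that marks Hif1a protein for breakdown, fell by 0.54 ± 0.16 (adjusted p = 0.03856), and by 0.31 without caudal 48 h array 271. Egln1 missed the threshold without caudal sham array 278, 279 or 280, rostral sham array 278 or caudal 48 h array 272 (0.05058 to 0.1237), and Hif1a without caudal sham array 278 (0.05206). None of the partner genes passed in the fit of the caudal 48 h and sham arrays alone, while Rcan1, Gch1, Klf4 and Ppargc1a passed with each array left out in turn.

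**Figure D3:**
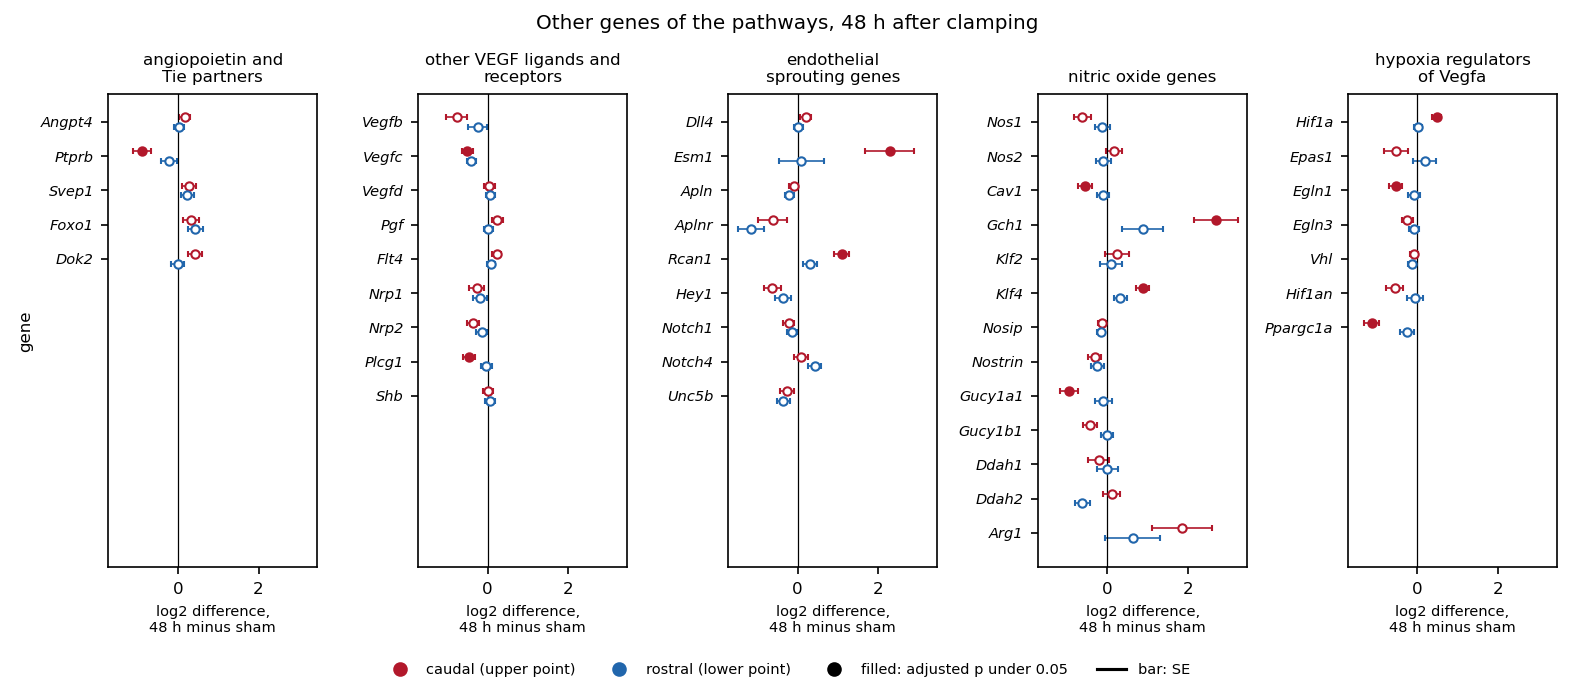
Log2 difference between 48 h and sham (horizontal axes, bars show SE) for the 43 genes of 5 partner lists, in caudal (red, upper) and rostral (blue, lower) cord; filled points had an adjusted p under 0.05. All filled points are caudal, with Gch1 (2.68) and Esm1 (2.28) farthest right and Ppargc1a (−1.13) farthest left.

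In rostral cord at 48 h none of the 9 genes was called by limma against rostral sham cord, where 0.61% of all genes were called. Vegfa and Kdr, 2 of the 9, had p under 0.05 before adjustment, as did 1288 of all genes. Vegfa had 7.88, 7.65, 8.18 and 8.44 on rostral 48 h arrays 271 to 274, against 8.49, 8.57, 8.64 and 8.73 on rostral sham arrays 277 to 280. All 48 h arrays lay below the sham arrays, and the difference was −0.57 ± 0.14 (−0.87 to −0.27, adjusted p = 0.0981). It passed without rostral 48 h array 274 (−0.70, adjusted p = 0.009371) and without caudal 48 h array 271 or 274 (0.0408 and 0.0382), which enter through the pooled spread. The other Vegfa probe set differed by −0.55 ± 0.16 (adjusted p = 0.2234 over all probe sets), and with the mean of both probe sets the gene passed (−0.56, adjusted p = 0.02416). Over all alternatives its adjusted p ran from 0.0008272 to 0.4273.

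Kdr had 8.47, 8.44, 7.99 and 8.51 on rostral 48 h arrays, against 8.69, 8.66, 8.58 and 8.57 on rostral sham arrays. These groups did not overlap, and the difference was −0.28 ± 0.12 (−0.53 to −0.02, adjusted p = 0.5956). Tek had 7.63, 7.29, 6.93 and 8.14, against 7.93, 8.01, 7.97 and 7.90, with array 274 above all sham arrays and the other 3 below them (−0.46 ± 0.28, −1.04 to 0.13, adjusted p = 0.9232). Angpt2 had 7.34, 7.45, 6.97 and 6.57, against 6.66, 6.91, 6.79 and 6.63. Array 274 again differed from the other 3, lying below the sham arrays while they lay above them, and the difference was 0.33 ± 0.24 (−0.16 to 0.83, adjusted p = 0.9999). Tie1 differed by −0.37 ± 0.23 (−0.85 to 0.11, adjusted p = 0.9302). Angpt1, Flt1, Nos3 and Plvap differed by −0.01 to 0.10.

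The rostral 48 h arrays were those with the highest cardiac levels, where 11 of 12 cardiac markers were called higher with a median difference of 4.94. The part of heart muscle RNA in the Vegfa and Kdr differences was not tested. Endothelial markers there averaged 8.93 to 9.08, against 8.93 to 9.06 on rostral sham arrays, and 0 of 13 were called. None of the 43 partner genes was called in rostral cord at 48 h. The smallest p of each list belonged to Foxo1 (0.44 ± 0.18, adjusted p = 0.5529), Vegfc (−0.40 ± 0.12, adjusted p = 0.1807), the apelin receptor gene Aplnr (−1.15 ± 0.33, adjusted p = 0.1589), Ddah2 (−0.62 ± 0.19, adjusted p = 0.2233) and Ppargc1a (−0.26 ± 0.18, adjusted p = 0.9877).

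At 24 h after clamping none of the 9 genes was called by limma in either region, where 0.0055% of all genes were called in caudal and 0% in rostral cord. Tek had 7.70, 7.98 and 8.01 on caudal 24 h arrays 281 to 283, against 7.96, 7.95 and 7.93 on sham arrays, a difference of −0.05 ± 0.32 (−0.73 to 0.63). Angpt2 had 7.26, 6.95 and 6.74, against 6.81, 6.76 and 6.96, a difference of 0.14 ± 0.27 (−0.43 to 0.71). Neither gene separated the groups at this time. Kdr did, with 8.42, 8.38 and 8.44, against 8.79, 8.70 and 8.84 in caudal sham cord, and was the 1 gene of the 9 with an unadjusted p under 0.05 (−0.36 ± 0.14, limma adjusted p = 0.9998), against 528 of all genes. Without both arrays numbered 283 the Kdr difference was −0.37 (adjusted p = 0.9999).

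Tie1 and Vegfa also lay below sham in caudal cord at 24 h without overlap. Tie1 had 6.59, 6.48 and 6.45, against 6.89, 6.87 and 7.02 (−0.42 ± 0.26, adjusted p = 0.9998), and Vegfa had 8.16, 8.29 and 8.40, against 8.62, 8.56 and 8.58 (−0.31 ± 0.17, adjusted p = 0.9998). In rostral cord Vegfa had 8.20, 8.34 and 8.35 at 24 h, below the 8.49, 8.57, 8.64 and 8.73 of sham cord (−0.31 ± 0.15, −0.63 to 0.02, adjusted p = 0.9999). No rostral gene of the 9 had an unadjusted p under 0.05 at 24 h, against 142 of all genes. Vegfa was below sham without overlap in all 4 comparisons of clamped with sham cord, and passed the adjusted p in none of them. How many of all genes separate in this way was not counted. The comparisons at 24 h and 48 h of 1 region share their sham arrays. The second Vegfa probe set differed by 0.10 ± 0.18 in caudal cord at 24 h, opposite in sign to the one used, and by −0.53 ± 0.17 in rostral cord (limma adjusted p = 1 over all probe sets). None of the partner genes was called at 24 h in either region.

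**Figure D4:**
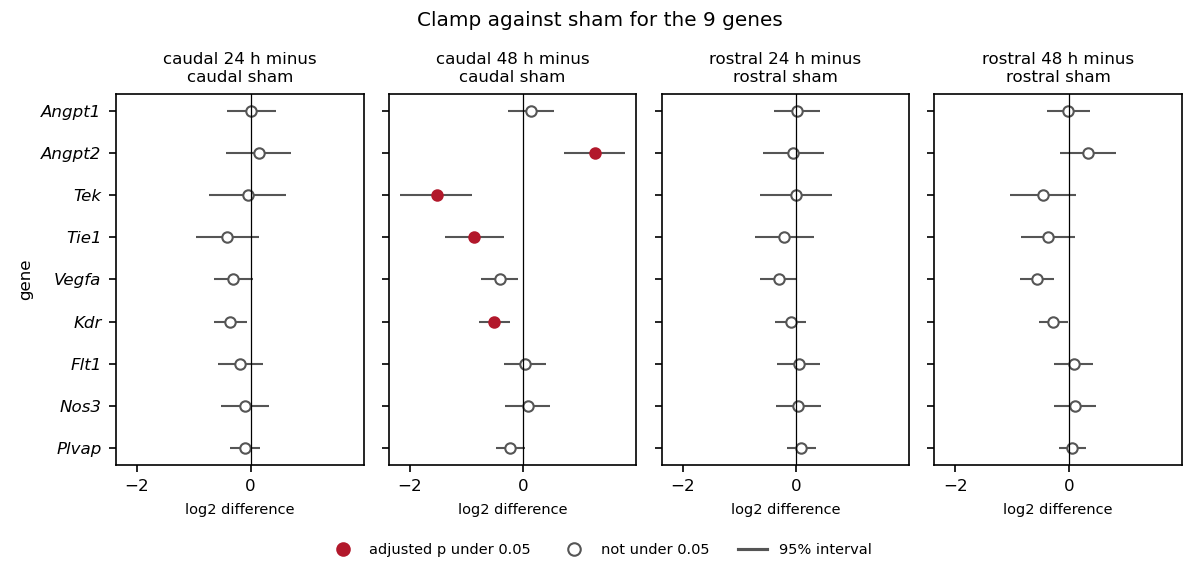
Log2 difference of clamped from sham cord (horizontal axes) for the 9 genes, at 24 h and 48 h in caudal and rostral cord; points are estimates, lines 95% intervals, and filled points had an adjusted p under 0.05. Only the caudal 48 h panel has filled points, for Angpt2 (1.26), Tek (−1.53), Tie1 (−0.87) and Kdr (−0.51).

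Between 24 h and 48 h in caudal cord, 2 of the 9 genes changed, where 6.69% of all genes were called. Tek was lower at 48 h, with 5.51 to 7.38, against 7.70 to 8.01 at 24 h, a difference of −1.49 ± 0.30 (−2.12 to −0.85, adjusted p = 0.00629). Angpt2 was higher at 48 h, with 7.25 to 8.81, against 6.74 to 7.26 at 24 h, the lowest 48 h array just under the highest 24 h array (1.11 ± 0.25, 0.58 to 1.65, adjusted p = 0.01321). Both calls were lost without caudal 24 h array 283, whose region genes went against its label. Without array 283 Tek differed by −1.43 (adjusted p = 0.05193) and Angpt2 by 0.99 (adjusted p = 0.1008). Angpt2 also missed the threshold without caudal 24 h array 282 (0.06575). Leaving out any 24 h array also makes that group smaller, and the part of this in the lost calls was not tested. In the fit of the caudal 24 h and 48 h arrays alone neither passed (0.3302 for Tek and 0.423 for Angpt2).

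Tie1 (−0.45 ± 0.25, adjusted p = 0.264), Kdr (−0.15 ± 0.13, adjusted p = 0.5016) and Vegfa (−0.11 ± 0.15, adjusted p = 0.6944) did not pass between these times. The caudal means of Tek and Angpt2 at 24 h (7.90 and 6.99) were near those of sham cord (7.95 and 6.84), while the caudal means of Tie1, Kdr and Vegfa at 24 h lay between those of sham and 48 h cord. For Tie1 the means were 6.93 in sham cord, 6.51 at 24 h and 6.06 at 48 h. For Kdr they were 8.77, 8.41 and 8.27, and for Vegfa 8.59, 8.28 and 8.18.

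The partner genes called between these times in caudal cord were Ptprb (−0.84), Gucy1a1 (−1.22) and Ppargc1a (−0.90), lower at 48 h, and Esm1 (2.26), Rcan1 (0.99), Gch1 (2.29), Klf4 (1.18) and Hif1a (0.37), higher at 48 h. Rcan1 and Klf4 passed without each caudal 24 h array and without both arrays numbered 283 (adjusted p 0.04134 for Rcan1 and 0.01795 for Klf4). Without both arrays numbered 283 the other 6 missed the threshold, with adjusted p-values between 0.05615 (Gucy1a1) and 0.2059 (Hif1a). Esm1 and Hif1a missed it without any 1 of the caudal 24 h arrays.

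In rostral cord none of the 9 genes was called between 48 h and 24 h and none had an unadjusted p under 0.05 (0.363% of all genes called by limma, and 956 with an unadjusted p under 0.05).

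Caudal and rostral cord were set against each other at 48 h, and 2 of the 9 genes differed, where 9.71% of all genes were called. Tek was lower in caudal cord, with 6.41 ± 0.81, against 7.50 ± 0.51 in rostral cord (SD, n = 4 each), a difference of −1.08 ± 0.28 (−1.67 to −0.49, adjusted p = 0.02016). Angpt2 was higher in caudal cord, with 8.10 ± 0.64, against 7.08 ± 0.40, a difference of 1.02 ± 0.24 (0.52 to 1.51, adjusted p = 0.0108). The 2 regions overlapped for both genes. Within each of array numbers 271 to 274, caudal minus rostral had 1 sign for both genes. It was −2.12, −0.59, −0.87 and −0.76 for Tek and 0.77, 1.36, 1.25 and 0.68 for Angpt2. The same held for 2 genes that were not called, Angpt1 (0.14, 0.08, 0.5 and 0.82) and Plvap (−0.57, −0.06, −0.13 and −0.01). The share of all genes with 1 sign was not counted. For numbers 271 to 274 the caudal and rostral deviations from their group means correlated at 0.245 to 0.534 across genes. Caudal arrays 272 to 274 correlated best with the rostral array of their own number, but caudal array 271 with rostral sham array 279. With the number of all 21 arrays as a fixed block both calls held (limma adjusted p 0.007775 for Tek and 0.002193 for Angpt2). The Tek call was lost without rostral 48 h array 271 or 274 (0.05001 and 0.08045), and both calls in a fit of these 2 groups alone (0.3464 for Tek and 0.2634 for Angpt2). Angpt1 differed by 0.38 ± 0.18 (adjusted p = 0.1701). Of 12 cardiac markers, 12 were called lower in caudal than in rostral cord at 48 h, with a median difference of −3.07. The part of heart muscle RNA in the differences between regions, of these and of the partner genes, was not tested.

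Among the partner genes at 48 h, Ptprb (−0.76 ± 0.20), Gucy1a1 (−1.19 ± 0.22) and Ppargc1a (−0.82 ± 0.18) were lower in caudal than in rostral cord. Esm1 (2.18 ± 0.56), Rcan1 (0.80 ± 0.17), Gch1 (1.67 ± 0.50), Klf4 (0.80 ± 0.16), Hif1a (0.55 ± 0.10) and Ddah2 (0.63 ± 0.19) were higher. Ddah2 encodes an enzyme that removes an inhibitor of nitric oxide synthases, and without caudal 48 h array 271 its difference was 0.37 (adjusted p = 0.06514, against 0.04395 with it). Gch1 likewise stood near the threshold (adjusted p = 0.04173), with 1.03 without caudal 48 h array 271 (0.08949). Ptprb and Esm1 missed it without rostral 48 h array 273 (0.08115 and 0.06079) or 274 (0.08807 and 0.05279). Klf4, Gucy1a1, Hif1a, Ppargc1a and Rcan1 passed with each array left out in turn, and none of the 9 partner genes passed in the fit of these 2 groups alone.

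The clamp effect itself was compared between regions by the difference of the differences. At 48 h none of the 9 genes passed, where 0.561% of all genes were called by limma, and 2 had an unadjusted p under 0.05, against 2228 of all genes. The caudal effect minus the rostral effect was −1.08 ± 0.41 for Tek (−1.94 to −0.21, adjusted p = 0.3467) and 0.92 ± 0.35 for Angpt2 (0.20 to 1.65, adjusted p = 0.3254). For Vegfa it was 0.16 ± 0.21 (−0.29 to 0.60), and for Kdr −0.23 ± 0.18 (−0.60 to 0.14). Calls in caudal and not in rostral cord are therefore not shown to differ between the regions by this test. Of 12 cardiac markers, 8 were called lower in it, with a median of −3.15. The part of heart muscle RNA was not tested. At 24 h no difference of effects was called among the 9 genes or among all genes (0% called by limma), and before adjustment 0 of the 9 and 338 of all genes reached p under 0.05. Each 24 h group holds an array numbered 283, whose region genes went against its label, so the lack of calls cannot show equal effects.

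**Figure D5:**
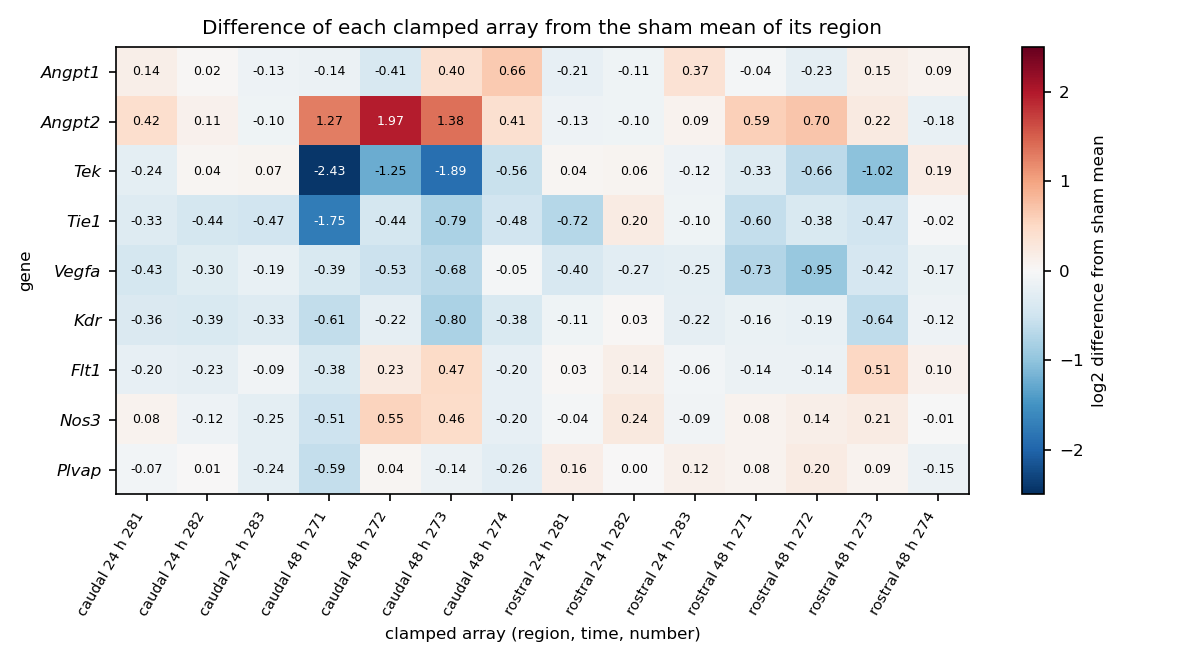
Log2 difference (colour and printed value) of each clamped array (columns, by region, time and number) from the sham mean of its region, for the 9 genes (rows). Caudal 48 h arrays 271 to 273 hold the strongest values, with Tek at −2.43, −1.25 and −1.89 and Angpt2 at 1.27, 1.97 and 1.38, while caudal array 274 stands at −0.56 and 0.41.

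On the 4 caudal 48 h arrays Tek, Tie1, Vegfa and Kdr were each below the caudal sham mean and Angpt2 above it, while Angpt1, Flt1, Nos3 and Plvap lay on both sides. Tek was −2.43, −1.25, −1.89 and −0.56 from the caudal sham mean on arrays 271 to 274, and Angpt2 was 1.27, 1.97, 1.38 and 0.41 from it. Array 274 had the smallest deviation for both, and for Vegfa (−0.05), and array 271 the strongest for Tek and Tie1 (−1.75 for Tie1). On rostral 48 h arrays 271 to 274 Tek was −0.33, −0.66, −1.02 and 0.19 from the rostral sham mean, and Angpt2 0.59, 0.70, 0.22 and −0.18. Arrays that share a number are not stated to share an animal.

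In sham cord the 9 genes had similar levels in both regions, and none was called, where 0.335% of all genes were called by limma. None had an unadjusted p under 0.05, against 1003 of all genes. Kdr (8.77 ± 0.07 in caudal and 8.63 ± 0.06 in rostral cord), Tie1 (6.93 ± 0.08 and 6.69 ± 0.15) and Angpt1 (7.75 ± 0.07 and 7.51 ± 0.10) were higher in caudal sham cord without overlap (SD, n = 3 and 4). The gaps were narrow. For Kdr the lowest caudal value was 8.70 and the highest rostral value 8.69. For Tie1 these were 6.87 and 6.86, and for Angpt1 7.69 and 7.64. How many of all genes separate in this way was not counted. Tek was at 7.95 in both regions. At 24 h no gene of the 9 was called between caudal and rostral cord (0% of all genes called by limma, 57 with an unadjusted p under 0.05 and none of the 9 among them). Each 24 h group holds an array numbered 283, on which Hoxc10 went against the region label (5.67 on the caudal and 10.14 on the rostral array). The lack of calls therefore cannot show that the regions were alike at 24 h.

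Ordered by group mean, Tek ran from rostral sham, rostral 24 h and caudal sham (7.95 each) through caudal 24 h (7.90) and rostral 48 h (7.50) down to caudal 48 h (6.41), and Angpt2 from caudal 48 h (8.10) through rostral 48 h (7.08), caudal 24 h (6.99), caudal sham (6.84) and rostral sham (6.75) to rostral 24 h (6.70). In neither order did neighbouring groups separate. Over all 9 genes, neighbours separated 3 times. For Tie1 and for Kdr caudal sham lay just above rostral sham, and for Vegfa caudal sham (8.59) lay above rostral 24 h (8.30). How often neighbours separate among all genes was not counted. The order of the group means of Angpt1, Flt1, Nos3 and Plvap held no separated neighbours, with ranges of means of 7.50 to 7.88, 8.89 to 9.09, 7.89 to 8.12 and 8.02 to 8.26.

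For each called gene, the genes with the most similar pattern were found by the root mean square distance between centred log2 profiles over the 21 grouped arrays. For Tek, whose own root mean square deviation was 0.69, they were Ypel2 (0.211), Map6d1 (0.248) and Cep97 (0.266). For Angpt2, with 0.58, they were Adam8 (0.157), Dusp5 (0.167) and Relb (0.169). For Tie1 they were Spata2, Mir124a-1hg and Stx2 (0.172 to 0.189, against 0.40), and for Kdr Zfp623, Zfp553 and Zfp27 (0.135 to 0.142, against 0.22). These genes share the arrays and their quality with the 4 genes, and likeness was not tested.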

How the data were processed

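The authors deposited log2 signals, computed by RMA according to the labels (the submitters' processing notes name no version), and these were used unchanged. No read depth exists for arrays, and precision is set by how many arrays a group holds. Of 45101 probe sets, 64 are controls, 34945 have 1 gene symbol, 932 have several and 9160 have none in the annotation of the platform. The probe set with the highest mean per symbol gave 18193 genes, and no symbol needed updating.

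Groups came from the labels. With limma 3.58.1 under R 4.3.3 (and statmod 1.5.0), lmFit and eBayes fitted 6 group means to 21 arrays, with 11 contrasts, 18.7 degrees of freedom and two-sided tests. Benjamini-Hochberg adjustment ran over all genes, each contrast on its own, and calls needed an adjusted p under 0.05. The procedure was run on simulated data with planted differences, independent normal values and, for each gene, the same spread in every group. Those data held no outlying or mislabelled array, so that run cannot show how such arrays affect the calls. The genes named are all 9 genes and, of each partner list, up to 4 called genes with the smallest p, or the smallest p where none was called. The 9 genes, the lists and the alternatives were chosen with earlier results of these data known. The counts of lists without doubted arrays and the leaving out of arrays for other probe sets were chosen after seeing the data. Alternatives were averaged probe sets per gene, a fit over all probe sets, the brighter genes only, a 2-fold minimum, repeated quantile normalisation, median-centred arrays, array weights, a trended robust eBayes, fits restricted to the compared groups, the array number as a block, array 276 as either time, leaving out arrays 283 or caudal arrays 271, 274 and 280, and each array left out in turn.

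The labels do not say what a number stands for. The deviations of same-numbered arrays correlated above 0.1 for all 4 numbers at 48 h, for 278 and 279 among the sham numbers but not 280 (0.087), and for none at 24 h. The reported fit has no block. Differences within a number are given at 48 h alone. The alternatives with a block used the numbers of all 21 grouped arrays, so the 24 h and sham numbers also entered their spread. At 48 h the block changed no call of the 9 genes. Each treatment and time has its own run of numbers (48 h has 271 to 274, sham 277 to 280, 24 h 281 to 283), so an effect of that order and the treatment cannot be told apart. Promoter sequences came from the RefSeq table of GRCm38.p6. The files give no coordinates for probe sets.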

Additional observations from a re-analysis of the deposited data

Results flagged for a closer look

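Among 27 combinations of a gene and a group of 4 arrays, 2 had an array far from the other 3, where chance flags about 1 in 20. Kdr was at 7.99 on rostral 48 h array 273, against 8.44 to 8.51 on the others, a gap of 0.859 of the group's range. Plvap was at 8.07 on rostral sham array 280, against 8.18 to 8.19, a gap of 0.881 of the range. For Kdr this is the array with the lowest Tek level of the group (6.93).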

How the results depend on the processing

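Of 3466 values of the 9 genes under alternatives, 3290 kept direction and side of the threshold, 24 lost and 28 gained a call, 124 moved without being called, and none reversed a call. The main counts of called genes were 4 (caudal 48 h against sham), 0 (rostral 48 h against sham), 2 (caudal 48 h against 24 h), 2 (caudal against rostral at 48 h) and 0 (difference of effects at 48 h). In that order, array weights gave 7, 2, 5, 5 and 2, and the fit of the compared groups alone gave 0 in all 5. The weights of caudal 48 h arrays 271 to 274 were 0.03, 0.47, 2.77 and 0.19. The share of all genes called under each alternative is not set beside these counts, so they do not single out the 9 genes. Among the brighter genes, which hold 5 of the 9 without Tek, Tie1, Angpt2 and Angpt1, the counts were 1, 0, 0, 0 and 0. With array weights the gained caudal 48 h calls were Vegfa, Flt1 and Nos3. A 2-fold minimum left 2 caudal 48 h calls (Tek and Angpt2). The mean of probe sets gave 1 rostral 48 h call (Vegfa). Without arrays 283 the caudal 48 h against 24 h count was 0. Without caudal arrays 271, 274 and 280 the counts were 1 in rostral cord, 4 between times and 1 for the difference of effects. Leaving out each array gave 2 to 5, 0 to 1, 0 to 2, 1 to 3 and 0 to 2, and 805 to 5736 of all genes in the first comparison. The cause was not tested.

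Ddah1 and Ddah2, not called in these comparisons, were called with the opposite sign. Ddah1 was 0.25 (caudal 48 h against sham) with array weights, and 0.32, 0.33 (48 h against 24 h) and 0.32 (caudal against rostral) without caudal arrays 271, 274 and 280. Ddah2 was −0.31 with array weights (48 h against 24 h), and −0.36 (48 h against sham) and −0.42 (48 h against 24 h) without those arrays.

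With the array number as a random replicate block (consensus correlation 0.138) the counts stayed 4, 0, 2, 2 and 0, and as a fixed block, possible between regions, 2 genes were called at 48 h. The same-numbered correlations ran from −0.45 to 0.534. Without caudal arrays 271, 274 and 280, a choice made after seeing the data, the endothelial markers had 4 higher and 4 lower in caudal cord at 48 h, the nitric oxide genes 5 and 4, and the other VEGF genes 1 and 4. The share of all genes called in that alternative is not set beside these counts. Without array 271 alone the endothelial count stayed 0 and 4.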

Other observations

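The rostral array 276, which carried both times in its labels, had log2 levels of 7.99 for Tek, 6.72 for Tie1, 6.68 for Angpt2, 7.91 for Angpt1, 8.16 for Vegfa and 8.61 for Kdr. Its Tek and Angpt2 levels lay within the ranges of both the rostral 48 h arrays (6.93 to 8.14 and 6.57 to 7.45) and the rostral 24 h arrays (7.83 to 8.02 and 6.62 to 6.83). Its Vegfa level lay within the rostral 48 h range (7.65 to 8.44) and below the 24 h range (8.20 to 8.35). Its cardiac markers averaged 10.32, within the 9.27 to 10.66 of the rostral 48 h arrays and above the 5.99 to 6.17 of the rostral 24 h arrays.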
